A study of Homo sapiens with 18 samples.

Results

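The effect of WWOX overexpression in cells that also carried an AP-2α construct was assessed by comparing the WA variant with the KA variant in 3 established lines of human bladder carcinoma (RT-112, CAL-29 and HT-1376). The comparison used 6 of the 18 CAGE-seq libraries of the study, 1 WA and 1 KA library from each line, and these were chosen by their labels and paired by cell line. Of the 16575 genes in the table, 12520 had at least 5 CPM (tags scaled to the library total) in at least 1 of the 6 libraries, and these were tested. Both variants had been transduced a second time with the pLKO-Neo-CMV system to overexpress AP-2α and selected with G418. Before that, WA cells had received WWOX in the pLenti-GIII-CMV-GFP-2A-Puro system and KA cells a blank lentivirus, both followed by puromycin. The constructs are named for the CMV promoter, and the sources used here speak of clone selection without saying whether a variant is 1 clone or a pool. The study treats the 3 lines as replicates. Each line had 1 library per variant, so a difference within a line has no replicate check and an error is only available across the lines.

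WWOX is a tumour suppressor that spans a common fragile site. Its WW domains bind proline-rich motifs in other proteins, including the AP-2 factors, and can keep transcription factors out of the nucleus. AP-2α (TFAP2A) and AP-2γ (TFAP2C) bind GC-rich palindromes and control genes of epithelial and urothelial differentiation. The contrast therefore asks what WWOX adds when AP-2α is supplied, whereas WK against KK asks the same with a blank second vector.

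CAGE-seq counts capped 5′ ends, so a value is a number of tags at the starts assigned to a gene. The reads on genes ranged from 14697809 to 17958572 over the 6 libraries, at which a gene without reads can have up to 0.158 to 0.192 CPM (3 reads, counting error only). Genes that mark a line in the KK libraries (at least 20 CPM there and under 0.5 CPM in the other lines) were kept: 9 of 9 RT-112 genes had at least 10% of their KK level in both RT-112 libraries, as did 47 and 43 of 47 HT-1376 genes in KA and WA, and 65 and 59 of 68 CAL-29 genes. The labelled cell type was visible in all 6, with 10 epithelial carcinoma markers summing to 6225.1 to 21549 CPM. Markers of other cell types were low: 4 of 10 leukocyte markers had a row and summed to 7 to 34.31 CPM, 3 of 10 endothelial markers summed to 2.81 to 36.9 CPM, and 6 of 10 fibroblast markers summed to 13.91 to 64.61 CPM. The highest fibroblast sum was that of HT-1376 WA, of which COL1A2 made up 46.08 CPM (4.37 CPM in KA), and its part in other results was not tested.

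The introduced genes themselves did not separate the variants. WWOX (ENSG00000186153, chr16:78099400-79212667 on GRCh38) had 23.52 CPM in RT-112 KA and 18.95 CPM in WA, 24.74 and 19.24 CPM in HT-1376, and 51.31 and 69.27 CPM in CAL-29. It was thus lower in WA in RT-112 and HT-1376 and higher in CAL-29, with a mean log2 change of −0.08 ± 0.44 (SD, n = 3 lines; limma adjusted p = 0.9995). With the blank second vector, CAL-29 showed a larger step, from 63.68 CPM in KK to 154.92 CPM in WK. Whether tags from vector transcripts were assigned to WWOX is not given in the sources used here, so the CAGE value does not check the protein. The study states that it used Western blots for WWOX and the AP-2 factors to check that the transductions had succeeded. WA and KA are the labels of the libraries throughout, and every direction below is one between libraries so labelled.

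TFAP2A (chr6:10393186-10419659), which both variants are labelled as overexpressing, had 46.77 CPM in RT-112 KA and 25.32 CPM in WA, 100.66 and 69.91 CPM in HT-1376, and 49.88 and 86.67 CPM in CAL-29. The KA values exceeded those of KK in all 3 lines (18.01, 68.99 and 35.43 CPM), but the WA values did not keep 1 order against KA or against the variants without the construct. RT-112 WA was above KK, WK (20.31 CPM) and WC (21.16 CPM, without the AP-2α construct), but nearer to these than to KA. HT-1376 WA was below WK (76.9 CPM) and near KK, and CAL-29 WA was above both (61.66 CPM in WK). The TFAP2A level in HT-1376 WA thus does not show the labelled overexpression, and that in RT-112 WA shows little of it. Whether vector tags were assigned to the gene is not given in the sources used here. TFAP2C (chr20:56629306-56639283), which neither variant should carry, had 49.4 CPM in RT-112 KA and 179.87 CPM in RT-112 WA. RT-112 KK and WK had 57.95 and 56.2 CPM. TFAP2C in HT-1376 went from 171.7 to 98.03 CPM and in CAL-29 from 70.28 to 79.85 CPM. RT-112 WC, the variant with WWOX and AP-2γ, had 142.75 CPM. Over log2 values of the genes tested, 3 of the 6 libraries were nearest to a library of an AP-2γ variant of their line, namely RT-112 WA to WC (r = 0.9902, against 0.9795 with KA), RT-112 KA to KC (r = 0.9912) and CAL-29 KA to WC (r = 0.9437). HT-1376 KA was nearest to KK (r = 0.9786), HT-1376 WA to WK (r = 0.976) and CAL-29 WA to KK (r = 0.9636), so no WA library was nearest to its KA partner. Results are therefore given for each line, and those without RT-112 are stated where they differ.

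**Figure D1:**
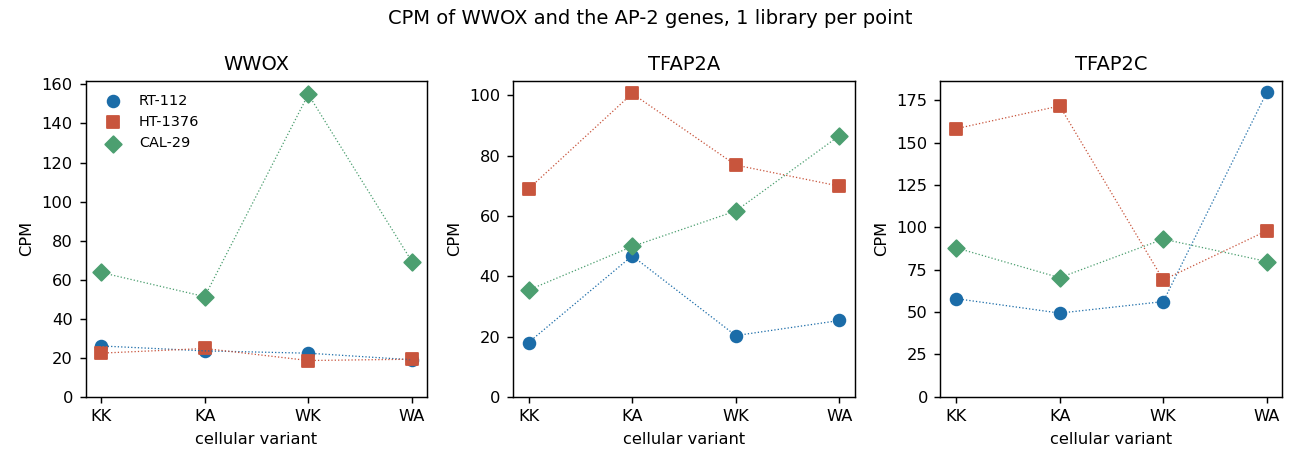
CPM of WWOX, TFAP2A and TFAP2C (vertical axes, from 0) in the KK, KA, WK and WA variants (horizontal axes), with 1 library per point and a symbol for each cell line. WWOX is high in CAL-29 WK alone (154.92 CPM), and TFAP2C is high in RT-112 WA (179.87 CPM).

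No gene passed the test of WA against KA. In limma with the cell line as a block, 0 of 12520 genes (0.0%) had an adjusted p under 0.05, the smallest being 0.9995, and 244 genes had an unadjusted p under 0.05 (145 higher and 99 lower in WA). The quasi-likelihood test of edgeR on the recovered reads called 0 genes (356 at an unadjusted p under 0.05), limma-voom 0 (356) and DESeq2 1. That gene was PSG1, a pregnancy-specific glycoprotein, which went from 91.12 to 5.69 CPM in HT-1376 and from 1.05 to 0.05 CPM in CAL-29 and was listed at 0 in both RT-112 libraries (DESeq2 adjusted p = 2.05e-04). It was named because it was called and not by the rule for named genes.

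The calls depended on which lines were compared. Without RT-112, limma called 2 genes, both lower in WA, namely CLU, which encodes the extracellular chaperone clusterin, and MIR6843, a microRNA gene that lies within CLU on the same strand, so that the pair cannot be told apart. CLU had 687.58 CPM in HT-1376 KA and 43.01 CPM in WA, 269.5 and 46.91 CPM in CAL-29, and 74.5 and 64.17 CPM in RT-112. Its change over HT-1376 and CAL-29 was −3.25 ± 0.41 on the log2 scale (SE; limma adjusted p = 0.0073), and in RT-112 it was −0.21. Without HT-1376, 15 genes were called, 13 of them higher in WA. They included the immediate early genes FOS, EGR1 and BTG2, the integrins ITGA6 and ITGB1, and PTGS2, the inducible cyclooxygenase. The integrins changed less in RT-112 than in CAL-29, by 0.38 and 2.78 for ITGB1 and 0.73 and 2.18 for ITGA6 (log2). CLU was again among the lower genes, although its change in RT-112 was small. EGR1, a zinc finger factor induced by growth signals, went from 1.68 to 5.59 CPM in RT-112 and from 115.01 to 544.51 CPM in CAL-29, but from 152.23 to 74.58 CPM in HT-1376. PTGS2 was higher in WA in all 3 lines, with 3.1 and 5.53 CPM in RT-112, 7.09 and 19.62 CPM in HT-1376, and 5.03 and 89.83 CPM in CAL-29. These genes were named after their values were seen, and a fit on 2 lines leaves a single residual degree of freedom per gene beside the shared variance.

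The sizes of change were unequal between the lines. At least 1 on the log2 scale, 363 genes (2.9%) were higher and 255 (2.04%) lower in WA in RT-112, 640 (5.11%) higher and 1126 (8.99%) lower in HT-1376, and 2823 (22.5%) higher and 351 (2.8%) lower in CAL-29. The split depended on the scaling. After TMM normalization the counts were 430 and 261 in RT-112, 774 and 811 for HT-1376 and 1603 and 878 for CAL-29. The median change of all genes was 0 for RT-112, −0.16 for HT-1376 and 0.30 for CAL-29 with the deposited CPM, and 0.01, −0.02 and −0.06 after TMM. In CAL-29 the change followed the level of the gene, with a median of 0.61 for the 1923 genes under 5 CPM on average and −0.18 for the 1651 genes at 100 CPM and more. The corresponding medians were 0 and −0.05 in RT-112 and −0.16 and 0.03 in HT-1376. TMM divides a library by a single factor, so it moves the median but does not remove this trend with level. List medians in CAL-29 are given both with the deposited CPM and after TMM, whereas values of single genes are deposited CPM. For lists of abundant genes in CAL-29, −0.18 is a closer reference than the 0.30 of all genes. No list was compared with genes of its own level.

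**Figure D2:**
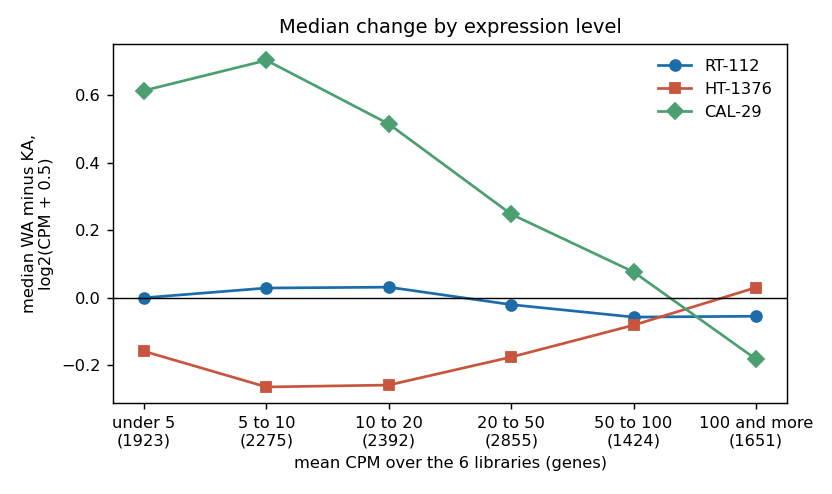
Median log2 change from KA to WA (vertical axis) for genes grouped by their mean CPM over the 6 libraries (horizontal axis, number of genes in brackets), 1 line per cell line. In CAL-29 the median descends from 0.70 at 5 to 10 CPM to −0.18 at 100 CPM and more, while RT-112 stays near 0.

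The 3 lines shared little of their change. Across the 12520 genes the Pearson correlation of the change was 0.03 between RT-112 and HT-1376, 0.03 between RT-112 and CAL-29 and −0.19 between HT-1376 and CAL-29. These are descriptions across genes, which are not independent replicates. Genes that differed by at least 0.5 on the log2 scale in the same direction in each line were nevertheless collected, which gave 90 higher (0.719%) and 40 lower (0.319%) in WA. With TMM scaling 85 and 63 met the rule, of which 60 and 28 were among the former, and after quantile normalization 65 and 80, of which 41 and 25 were shared. Of the 90 genes, 29 stayed under 10 CPM in all 6 libraries, as did 7 of the 40. No gene of either group was called, and the groups carry no test. The 12 genes per direction whose change in the least changed line was largest are described first. All 24 kept their direction in each line under TMM and quantile scaling, and 24 and 19 of them still differed by at least 0.5 in each. The 5 that did not after quantile scaling were BAALC, CRCT1, PSD3, SLC43A2 and ST6GAL1. Of the other named genes that met the rule, H2BC9, H4C3, ID1, IL32, JUNB, TNFRSF10B and ZNF235 no longer reached 0.5 in every line after TMM, nor did BIRC3, FRMD6, H2BC9 and ZNF235 after quantile scaling, where ZNF235 also lost its common direction.

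Among the 90 higher genes, IL1A, which encodes the alarmin interleukin-1α, had the largest change in the line where it changed least. It had 0.37 CPM in RT-112 KA and 1.9 CPM in WA, 1.31 and 23.65 CPM in HT-1376, and 2.88 and 12.6 CPM in CAL-29. The WA values did not all exceed the KA values of other lines, but within each line WA was higher, by 5.16-fold in RT-112 (7 and 34 reads, 95% exact interval from counting 2.25 to 13.8), 18.1-fold in HT-1376 (11.9 to 28.9) and 4.38-fold in CAL-29 (3.23 to 6.04). The mean log2 change was 2.39 ± 1.20 (SD, n = 3). In CAL-29 the KK library held as much as WA (12.61 CPM), so the low value there was that of KA.

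LRP1, a large endocytic receptor of the LDL receptor family (chr12:57128483-57213361), was the gene with the smallest p among the 90 and had at least 10.84 CPM in every library. Its values were 57.77 and 120.85 CPM in RT-112, 10.84 and 30.23 CPM in HT-1376, and 26.71 and 66.16 CPM in CAL-29. The mean log2 change was 1.26 ± 0.19 (SD, n = 3; limma SE 0.24, adjusted p = 0.9995). PRDM1, the transcriptional repressor BLIMP-1, went from 1.26 to 3.35 CPM in RT-112, from 1.08 to 3.71 CPM in HT-1376 and from 6.25 to 18.44 CPM in CAL-29. EHF, an ETS factor of epithelia, went from 7.79 to 16.66, from 2.55 to 14.63 and from 16.59 to 47.78 CPM in the same order.

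COL7A1, the collagen of anchoring fibrils, went from 2.95 to 6.6 CPM in RT-112, from 2.61 to 14.06 CPM in HT-1376 and from 41.58 to 98.94 CPM in CAL-29. B3GNT5, a glycosyltransferase of the lacto series glycolipids, went from 1.16 to 3.52, from 0.51 to 2.88 and from 8.18 to 29.18 CPM. ST6GAL1, the sialyltransferase that adds α2,6-linked sialic acid, went from 0.32 to 2.24, from 0.17 to 1.02 and from 12.28 to 24.65 CPM. The remaining genes chosen by the same rule were KCNMB4, BAALC, TRIB2, PSD3 and SPEG, with mean log2 changes of 1.33, 2.10, 1.48, 1.23 and 1.18. BAALC had no reads in HT-1376 KA and 2.62 CPM in WA, which makes it at least 15.4-fold higher there (against 3 reads in KA). With the blank second vector, several of the 12 genes were lower with WWOX in CAL-29. The log2 changes from KK to WK there were −1.36 for IL1A, −0.47 for B3GNT5, −0.96 for EHF, −0.93 for COL7A1, −1.65 for ST6GAL1 and −1.38 for PSD3. KCNMB4, PRDM1, BAALC, LRP1, TRIB2 and SPEG were higher in WK than in KK in CAL-29.

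The 40 lower genes held 1 of the 45 tested genes of the DNA replication and mitosis list, against 0.319% of all genes. This gene, CDC45, a subunit of the replicative helicase, went from 40.3 to 18.89 CPM in RT-112, from 107.41 to 67.42 CPM in HT-1376 and from 27.65 to 15.87 CPM in CAL-29. The ratio of KA to WA was 2.13 (95% interval 1.87 to 2.43), 1.59 (1.48 to 1.72) and 1.74 (1.504 to 2.02), and the mean log2 change was −0.84 ± 0.21 (SD, n = 3). SKA1, a spindle and kinetochore protein, went from 16.36 to 8.66, from 62.3 to 36.62 and from 29.91 to 16.85 CPM. H2BC6, a replication-dependent histone H2B gene, went from 188.51 to 85.41, from 46.24 to 14.57 and from 82.17 to 51.22 CPM.

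MYL9, the regulatory light chain of smooth muscle myosin, went from 17.1 to 10.51 CPM in RT-112, from 59.97 to 32.66 CPM in HT-1376 and from 405.31 to 234.38 CPM in CAL-29. TAGLN (transgelin), an actin-binding protein of smooth muscle that met the 0.5 rule as a mesenchymal gene, went from 74.55 to 34.43, from 62.75 to 39.37 and from 64.58 to 21.33 CPM. ACTA2, the smooth muscle actin, went the other way, from 0.95 to 2.85, from 1.31 to 4.98 and from 3.76 to 5.4 CPM. SLC43A2, a transporter of large neutral amino acids, went from 6.37 to 3.13, from 13.16 to 8.05 and from 27.48 to 12.65 CPM. MELTF, CPVL, CRCT1, LINC00467, B3GALT9 and LRRC26 complete the genes of the rule, with mean log2 changes of −0.82, −0.95, −1.24, −0.90, −0.96 and −1.28. CRCT1 was well covered in HT-1376 alone (573.87 and 132.09 CPM), with 12 and 3 reads in RT-112 KA and WA and 11 and 2 in CAL-29. MELTF had 14 and 5 reads in RT-112 (ratio of WA to KA 0.379, 95% interval 0.107 to 1.115). MIR3621 had the same value as LRRC26 in every library (39.72 and 22.47 CPM in RT-112), so the microRNA and the overlapping gene cannot be told apart.

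**Figure D3:**
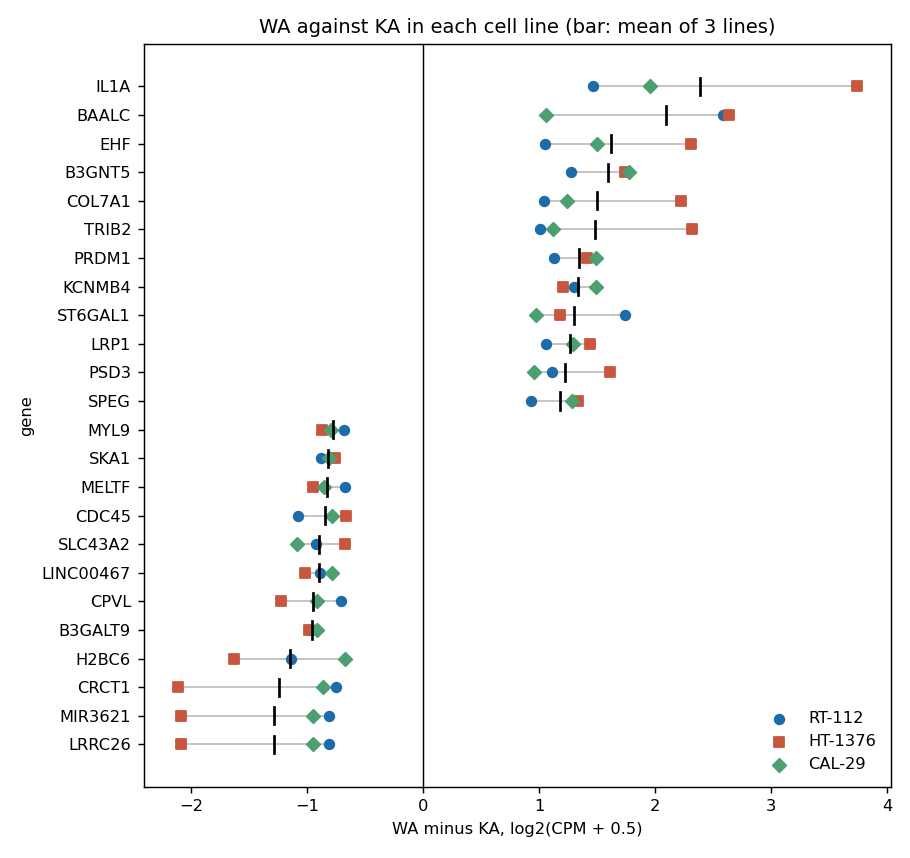
Change from KA to WA, log2(CPM + 0.5) (horizontal axis), of the 12 higher and 12 lower genes whose change in the least changed line was largest (vertical axis). Symbols are the 3 cell lines and the black bar is their mean. All 36 symbols of the 12 higher genes lie above 0.9 and all 36 of the 12 lower genes lie below −0.6. HT-1376 is the outermost line for IL1A (3.74).

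The promoters of these genes were searched for the AP-2 palindrome GCCNNNGGC, the AP-1 site TGANTCA and the CCAAT box CCAAT on both strands, in the 300 bases from 250 before to 50 after the RefSeq start. GCCNNNGGC was present in 27 of 70 promoters of the higher genes (38.57%) and in 9 of 25 of the lower genes (36%), against 32.8% of the genes tested and 23.04% of all 27303 promoters. TGANTCA was present in 3 of 70 (4.286%) and 1 of 25 (4%), against 4.557% of the genes tested and 7.765% of all. CCAAT was present in 21 of 70 (30%) and 10 of 25 (40%), against 37.5% of the genes tested and 35.7% of all. The sequences below are the 150 bases before the RefSeq start (GRCh38.p14, 5′ to 3′ on the strand of the gene) of the genes among the 24 with a match there, shown so that the promoters of genes that were higher and lower in WA can be read side by side. Capitals mark the matches, none of which overlaps another.
IL1A, chr2:112784494-112784643, minus strand: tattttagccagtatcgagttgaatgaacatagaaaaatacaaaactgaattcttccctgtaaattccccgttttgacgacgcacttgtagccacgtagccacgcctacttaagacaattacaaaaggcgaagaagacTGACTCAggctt
PRDM1, chr6:106086186-106086335, plus strand: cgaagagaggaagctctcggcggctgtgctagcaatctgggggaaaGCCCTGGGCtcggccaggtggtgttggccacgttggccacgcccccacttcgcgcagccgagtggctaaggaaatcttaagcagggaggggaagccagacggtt
EHF, chr11:34624107-34624256, plus strand: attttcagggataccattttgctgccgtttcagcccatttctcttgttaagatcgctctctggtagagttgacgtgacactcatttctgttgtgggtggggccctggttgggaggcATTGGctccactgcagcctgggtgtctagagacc
ST6GAL1, chr3:186930376-186930525, plus strand: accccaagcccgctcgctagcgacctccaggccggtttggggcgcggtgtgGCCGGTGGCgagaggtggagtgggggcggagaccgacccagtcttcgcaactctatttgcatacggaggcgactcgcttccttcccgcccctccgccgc
CDC45, chr22:19479770-19479919, plus strand: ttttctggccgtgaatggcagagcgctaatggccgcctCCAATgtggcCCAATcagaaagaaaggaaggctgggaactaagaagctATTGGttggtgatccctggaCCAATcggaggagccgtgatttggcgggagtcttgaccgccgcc
H2BC6, chr6:26183611-26183760, plus strand: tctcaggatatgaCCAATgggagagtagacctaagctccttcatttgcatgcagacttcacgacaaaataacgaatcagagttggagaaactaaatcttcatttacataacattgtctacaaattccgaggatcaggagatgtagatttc
SLC43A2, chr17:1605035-1605184, minus strand: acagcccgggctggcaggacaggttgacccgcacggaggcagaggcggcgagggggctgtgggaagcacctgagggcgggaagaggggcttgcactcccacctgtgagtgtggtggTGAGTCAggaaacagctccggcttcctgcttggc

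The AP-1 letters of IL1A began 12 bases before the start and those of SLC43A2 34 bases before it. The AP-2 palindrome began 104 bases before the start of PRDM1 and 99 before that of ST6GAL1. CDC45 had 4 CCAAT boxes, the nearest beginning 44 bases before the start, and H2BC6 and EHF had 1 each (137 and 34 bases before). TRIB2 and B3GALT9 had the palindrome further upstream, at 202 and 166 bases. The matches are descriptions of the reference sequence, and no binding was measured.

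The replication-dependent histones, whose transcripts accumulate in S phase, were the list with the most uniform direction. All 23 listed genes (H2BC6 is not among them) passed the filter, and 18 of them (78.3%) were lower in WA in all 3 lines, against 8.41% of all genes. After TMM scaling it was again 18, against 11.1% of all genes. The list median was −0.62 for RT-112, −0.37 for HT-1376 and −0.34 for CAL-29 (−0.73 after TMM), where the median of all genes was 0, −0.16 and 0.30. For genes at 100 CPM and more on average, as H4C3 and H2BC9 were, the CAL-29 median was −0.18 with the deposited CPM. H4C3, a histone H4 gene, went from 3013.2 to 1966.4 CPM in RT-112, from 2338.7 to 1535.5 CPM in HT-1376 and from 638.98 to 429.37 CPM in CAL-29. H2BC9 went from 1867.2 to 1102.3, from 1223.1 to 858.57 and from 263.48 to 115.85 CPM. Of the 23 members, 2 differed by at least 0.5 in each line, both lower in WA, and 6 had an unadjusted limma p under 0.05, but 0 passed the adjustment. Histone genes are near-identical copies in their coding sequence, and the way shared tags were assigned is not given in the sources used here.

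Genes of DNA replication and mitosis lay in the same direction. Of 45 tested (49 listed), 20 (44.4%) were lower in WA in all 3 lines and 1 was higher, and with TMM scaling 27 (60%) were lower. The median was −0.50 for RT-112, −0.57 for HT-1376 and −0.07 for CAL-29, and −0.49, −0.42 and −0.46 after TMM. With the deposited CPM the CAL-29 value was thus near 0 while all genes there had a median of 0.30. In that line 9 of the 45 were at least 1 higher and 3 lower, against 22.5% and 2.8% of all genes. After TMM it was 4 and 6, against 1603 and 878 of 12520 genes. E2F1, the transcription factor that drives entry into S phase, went from 73.71 to 55.06 CPM in RT-112, from 53.85 to 23.2 CPM in HT-1376 and from 45.18 to 26.02 CPM in CAL-29. OIP5, a centromere protein that was chosen for its difference between the contrasts, went from 39.78 to 20.18, from 43.35 to 33.36 and from 18.47 to 10.04 CPM. In bulk libraries fewer cycling cells and less RNA per cell cannot be told apart, and growth at harvest was not analysed here.

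The same lists did not move alike with the blank second vector. From KK to WK the histone median was −0.02 for RT-112, −0.57 for HT-1376 and 1.62 for CAL-29, and the replication and mitosis median was −0.02, −0.68 and 0.69, against 0.03, −0.15 and −0.15 for all genes. H2BC9 in CAL-29 went from 172.1 CPM in KK to 579 CPM in WK, compared with 263.48 CPM in KA and 115.85 CPM in WA. In HT-1376 both contrasts pointed down, with 1501.5 CPM in KK and 980.63 CPM in WK.

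Chemokine and cytokine genes were mostly higher in WA in HT-1376 but not in CAL-29. Of 29 chemokines and cytokines tested (38 listed), 20 were at least 1 higher and 0 lower in HT-1376, against 5.11% and 8.99% of all genes, 4 and 0 in RT-112 (2.9% and 2.04%), and 3 and 4 in CAL-29 (22.5% and 2.8%). The medians were 1.30, 0.25 and −0.20, and 1.42, 0.29 and −0.53 after TMM, where 3 were higher and 8 lower in CAL-29. A difference of at least 0.5 in each line was seen for 3 members, all higher, namely IL1A, IL32 and BIRC3. IL32, a proinflammatory cytokine, went from 5.05 to 9.61 CPM in RT-112, from 110.81 to 440.12 CPM in HT-1376 and from 58.94 to 96.16 CPM in CAL-29. BIRC3, an inhibitor of apoptosis induced by NF-κB, went from 0.26 to 0.67, from 4.14 to 6.65 and from 1.88 to 8.89 CPM. Among interferon-stimulated genes, 10 of 38 (26.3%) were higher in all 3 lines and 0 lower, against 10.9% and 8.41% of all genes. Their medians were 0.14, 0.55 and 0.59, and 0.17, 0.69 and 0.21 after TMM. IFIH1, the RNA sensor MDA5, went from 0.26 to 0.89, from 3.46 to 6.01 and from 1.66 to 4.09 CPM.

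The matrix and integrin, TGF-β, Rap1, WNT and Eph lists had larger shares of genes higher in all 3 lines than the 10.9% of all genes, whereas matrix proteases had 8.33%. In each of the first 3 lists 1 gene differed by at least 0.5 in every line. Of 28 matrix and integrin genes, 9 (32.1%) were higher in all 3 lines and 0 lower (8.41% of all genes), with medians of 0.37, 0.06 and 0.72 (0.40, 0.18 and 0.38 after TMM). Of 35 genes of TGF-β, activin and BMP signalling, 9 (25.7%) were higher in all lines and 3 (8.57%) lower. ID1, an inhibitor of basic helix-loop-helix factors and a BMP target, went from 291.74 to 638.06 CPM in RT-112, from 129.71 to 267.06 CPM in HT-1376 and from 273.04 to 423.04 CPM in CAL-29. Of 30 Rap1 pathway genes, 5 (16.7%) were higher in all lines and 1 lower, and SIPA1L2, a GTPase-activating protein for Rap, went from 0.16 to 0.56, from 0.28 to 3.9 and from 3.43 to 9.6 CPM. FRMD6, an upstream regulator of the Hippo pathway, went from 4.89 to 7.15, from 9.59 to 17.06 and from 18.25 to 50.51 CPM. Its list of 21 Hippo-YAP genes did not share this direction, with medians of 0.27, −0.66 and 0.36 (0.30, −0.52 and −0.02 after TMM). In HT-1376 0 of the 21 were at least 1 higher and 6 lower, against 5.11% and 8.99% of all genes. Of 33 WNT pathway genes 7 (21.2%) were higher in all lines and 0 lower, as were 4 of 14 Eph receptors and ephrins (28.6%) and 0, and 0 of either list differed by at least 0.5 in each. After TMM the shares higher in all lines were 28.6% for matrix and integrins, 22.9% for TGF-β, 16.7% for Rap1, 15.2% for WNT and 14.3% for Eph genes, against 9.42% of all genes. These were 5 of 30 Rap1 and 2 of 14 Eph genes, small counts that were not tested against that share. Such shares were not particular to these lists. With the deposited CPM they were 25.8% for the ATF4 amino acid response, 25% for proteins known to bind WWOX, 23.1% for basal and squamous genes and 20% for AP-1 and immediate early genes.

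Immediate early genes differed between the lines. Of 25 AP-1 and immediate early genes, 6 were at least 1 higher and 0 lower in RT-112, against 2.9% and 2.04% of all genes. In HT-1376 3 were higher and 6 lower (5.11% and 8.99% of all genes). In CAL-29 10 were higher and 1 lower (22.5% and 2.8% of all genes). After TMM the CAL-29 counts were 9 and 3, against 1603 and 878 of 12520 genes. JUNB, a subunit of AP-1, was higher in each line, with 1251.4 and 3177.3 CPM in RT-112, 1426.7 and 2120.1 CPM in HT-1376, and 1055.5 and 1513.9 CPM in CAL-29. FOS, its dimer partner, went from 22.1 to 47.51 CPM in RT-112 and from 7.52 to 180.65 CPM in CAL-29, but from 70.87 to 5.43 CPM in HT-1376. The other HT-1376 variants had 2.17 (KK), 3.44 (WK), 3.76 (KC) and 3.83 CPM (WC), so the unusual value there was that of KA. In promoters, TGANTCA was found for 9.934% of the genes at least 1 higher and 6.235% of those lower in HT-1376, 4.139% of those higher and 10.96% of those lower in CAL-29, and 7.463% and 4.348% in RT-112, against 4.557% of all genes tested and 7.765% of all promoters.

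HT-1376 showed the largest single changes of the 3 lines, several of them in squamous genes. CALML3, a calmodulin-like protein of stratified epithelia, went from 1.13 to 124.17 CPM (109-fold, counting interval 70.7 to 179.5). S100A2, a p63-regulated calcium-binding protein (chr1:153561108-153567890), went from 117.85 to 4598.9 CPM, compared with 3436.9 CPM in RT-112 WA and 2105.1 CPM in CAL-29 WA. KRT6A, a keratin of activated keratinocytes, went from 1.48 to 68.25 CPM, and SPRR2A, a cornified envelope precursor, from 0.91 to 31.57 CPM. The squamous lists followed in HT-1376. Of 16 cornified envelope genes tested (30 listed), 12 were at least 1 higher and 1 lower in HT-1376, against 5.11% and 8.99% of all genes, compared with 1 and 1 in RT-112 and 3 and 6 in CAL-29 (2 and 6 after TMM), and of 26 basal and squamous genes 11 were higher and 0 lower in HT-1376. The medians in HT-1376 were 1.86 and 0.87.

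The genes that were lower in HT-1376 WA were of mixed kind. BCAM, the Lutheran glycoprotein that binds laminin, went from 88.34 to 0.64 CPM (10 reads; 138-fold lower, interval 75 to 288.9). HSD17B1, which makes estradiol from estrone, went from 130.56 to 1.73 CPM. PSG11 went from 52.6 to 0.13 CPM, the latter 2 reads (412-fold lower, interval 114 to 3403). The cancer-testis gene XAGE1A went from 245.74 to 7.03 CPM, and XAGE2 from 353.83 to 6.52 CPM. PSCA, the prostate stem cell antigen, and CITED2, a coactivator of AP-2, went from 292.15 to 18.98 CPM and from 193.94 to 40.13 CPM. Luminal urothelial genes, a list that holds PSCA, had a median of −0.49 in HT-1376. Of the 23 tested, 6 were at least 1 lower and 3 higher there, against 8.99% and 5.11% of all genes. FABP4, also of this list, went the other way, from 0.11 to 2.11 CPM (2 and 33 reads).

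Most of the HT-1376 pattern was also present with the blank second vector. The change from KA to WA correlated across genes with that from KK to WK at r = 0.74 in HT-1376, 0.18 in RT-112 and −0.17 in CAL-29. The contrasts share no library, but the WA and WK cells of a line share the first transduction. Of the 640 genes at least 1 higher in WA in HT-1376, 489 were also at least 1 higher in WK (76.4%, or 49.5% of those higher in WK), and of the 1126 lower genes 673 (59.8%, or 38.2%). S100A2 went from 23.22 CPM in KK to 4276 CPM in WK, BCAM 45.31 and 0.4 CPM, and HSD17B1 158.24 and 5.68 CPM. XAGE1A differed from these, with 204.01 CPM in KK and 198.19 CPM in WK. Its low value was not particular to WA, as HT-1376 KC and WC had 6.67 and 66.29 CPM.

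**Figure D4:**
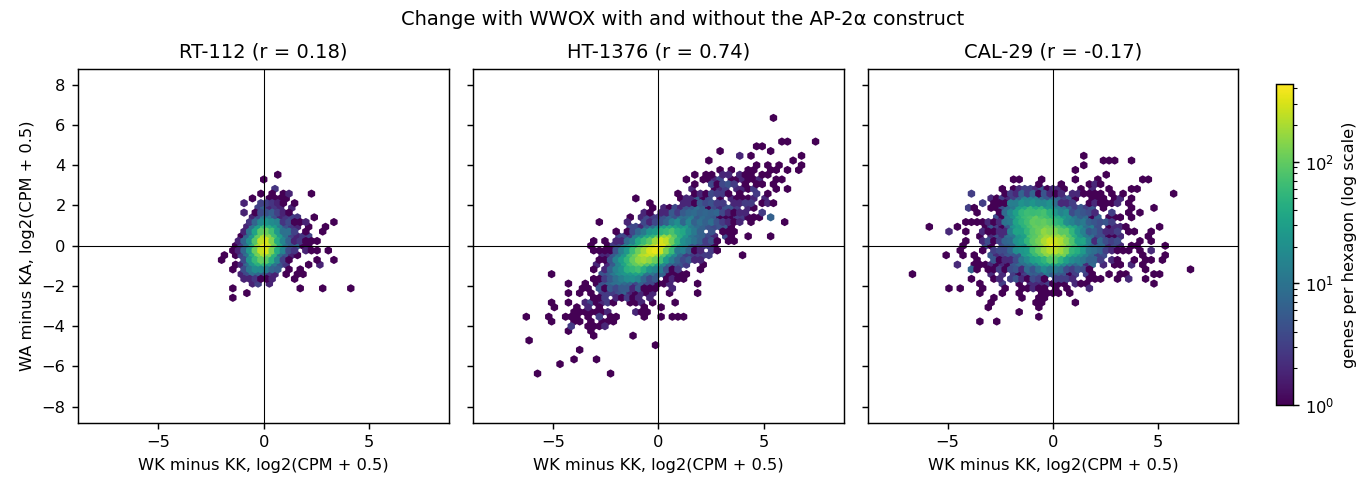
Log2 change from KA to WA (vertical axes) against that from KK to WK (horizontal axes) for 12520 genes in each cell line, with the number of genes per hexagon on a logarithmic colour scale. The genes of HT-1376 lie along a rising diagonal (r = 0.74), whereas those of CAL-29 spread into the upper left quadrant (r = −0.17).

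In CAL-29 the contrasts were often opposite. At least 1 lower in WK than in KK were 2014 genes. Of these, 925 were at least 1 higher in WA than in KA, against 22.5% of all genes, and 102 lower (5.06%, against 2.8%). Of the 974 genes at least 1 higher in WK, 189 were also higher in WA (19.4%, against 22.5%) and 45 lower. The overlap was not computed after TMM, where 1603 of all genes were at least 1 higher in WA and 878 lower. An example was the list of endoplasmic reticulum chaperones, from which HSP90B1 and SEL1L were named by mean change. HSP90B1, the chaperone GRP94 (chr12:103930107-103953931), had 482.06 CPM in KA and 3029.9 CPM in WA, and 2740.3 CPM in KK and 198.45 CPM in WK. SEL1L, which acts in degradation of misfolded proteins, had 66.57 and 297.26 CPM in KA and WA, and 354.17 and 37.51 CPM in KK and WK. The 24 genes of the list had a median of 0.77 from KA to WA (0.37 after TMM) and −2.16 from KK to WK in CAL-29. All genes there had medians of 0.30 (−0.06 after TMM) and −0.15. From KA to WA, 6 of the 24 were at least 1 higher and 0 lower, near the 22.5% and 2.8% of all genes. After TMM it was 3 and 0, against 1603 and 878 of 12520 genes. In RT-112 and HT-1376 the medians of the list from KA to WA were −0.08 and −0.14. The ATF4 amino acid response gave 0.47 (0.08 after TMM) against −2.10. Cholesterol and fatty acid synthesis was lower in CAL-29 WA, with 10 of 33 genes at least 1 lower and 0 higher (14 and 0 after TMM), against 2.8% and 22.5% of all genes, and a median of −0.50 (−0.89 after TMM), compared with 0.25 in RT-112 and 0.04 in HT-1376. This list was not opposite between the contrasts, with −0.70 from KK to WK in CAL-29.

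Other large changes in CAL-29 were single genes. CLEC2B, a lectin that binds a receptor of natural killer cells, went from 0.33 to 15.49 CPM (6 and 284 reads), and FAM50B from no reads to 9.22 CPM (at least 55.6-fold higher, against 3 reads in KA). G0S2, an inhibitor of adipose triglyceride lipase, went from 23.89 to 1.25 CPM, CD70, a ligand of the TNF family, from 10.28 to 0.49 CPM, and NT5DC4 from 27.26 to 1.47 CPM. KLF5, a factor of bladder epithelium known to bind WWOX, went from 71 to 254.99 CPM, whereas in RT-112 and HT-1376 it went from 69.13 to 72.39 and from 34.44 to 37.51 CPM.

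RT-112 had fewer and smaller changes, in the library with raised TFAP2C. MUC4, a membrane mucin, went from 2 to 25.88 CPM (12.9-fold, interval 9.29 to 18.5), and ELF3, an epithelial ETS factor, from 144.69 to 458.74 CPM. PLPPR3 went from 0.58 to 7.55 CPM. MIR3189 went from 6.52 to 47.68 CPM, with nearly the values of GDF15 (6.63 and 47.68 CPM), a stress-induced cytokine whose locus it overlaps. Lower in WA were NASP, a chaperone of histone H1 and H3, from 32.15 to 5.31 CPM, AGR2, a disulfide isomerase of mucus-producing cells, from 62.29 to 12.69 CPM, and KRT1 from 31.3 to 6.43 CPM. AGR2 went the other way in CAL-29, from 265.91 to 1029.9 CPM.

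The difference between the effect of WWOX with and without the AP-2α construct was tested as an interaction over 12 libraries. It called 0 of 12520 genes (0.0%; smallest limma adjusted p = 0.8817), with 422 genes at an unadjusted p under 0.05 (315 with the larger value in WA against KA and 107 with the smaller), and edgeR also called 0 (537 at an unadjusted p under 0.05). The 5 genes with the smallest p in each direction were TAF7, ZNF235, RN7SL2, COPA and TOGARAM1, and SERPINA1, OIP5, WFDC21P, MT1X and DEFB1. SERPINA1, the protease inhibitor α1-antitrypsin, had log2 changes of 0.66, −0.50 and −0.50 from KA to WA in RT-112, HT-1376 and CAL-29, and 2.10, 3.94 and 1.59 from KK to WK. TOGARAM1, a microtubule protein of cilia, had 1.20, 0.17 and 1.51, and −0.37, −0.43 and −1.56. Neither gene passed the correction.

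**Figure D5:**
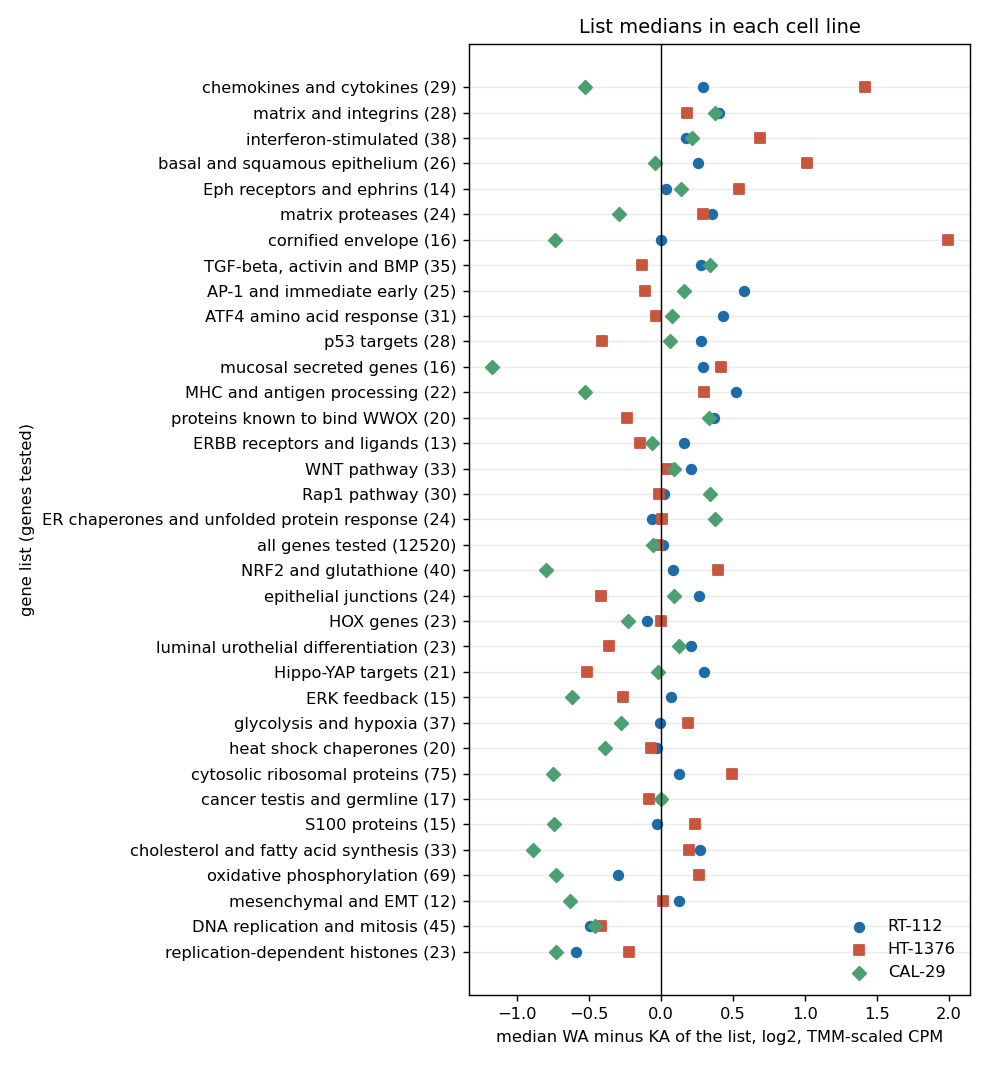
Median log2 change from KA to WA (horizontal axis, TMM-scaled CPM) of each gene list with at least 10 genes tested (vertical axis, number of genes in brackets), with a symbol for each cell line. Histones and DNA replication and mitosis lie left of 0 in all 3 lines (−0.59, −0.22 and −0.73, and −0.49, −0.42 and −0.46), and the cornified envelope is far right in HT-1376 (1.99) and left in CAL-29 (−0.74).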

How the data were processed

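CAGE-seq was performed by the authors on capped RNA of 18 libraries, of which the 6 WA and KA libraries were compared and the 6 KK and WK libraries were used for the interaction. Per the labels and methods, reads were mapped to hg38 with BWA and then HISAT2 2.0.5, clustered with Paraclu, filtered by the irreproducible discovery rate and summed per gene. The authors deposited CPM with 2 decimals, and the total behind the CPM is not given in the sources used here. The deposited CPM were multiples of the worth of a read for 99.97% to 99.99% of values in the 6 libraries (19.1% to 23.4% with a wrong step), so reads were recovered for the count fits. Library pairs were checked for duplicates (chi-square per degree of freedom 67.62 to 127.2).

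The filter kept 12520 genes that reached 5 CPM in 1 or more of the 6 libraries. Values were transformed to log2(CPM + 0.5), which understates changes of low genes, and limma 3.58.1 (R 4.3.3) was fitted with the cell line as block, a trended variance and Benjamini-Hochberg adjustment. The line pairs the libraries by design, and the deviations of paired libraries from the variant means correlated at 0.879, 0.772 and 0.750. The p-values measure the spread between lines. Fits were tested on simulated data. Alternatives were edgeR 4.0.16, DESeq2 1.42.0, voom, TMM, quantile scaling, pseudocounts of 0.05 and 2, other filters and each line left out. Further steps used Python 3.11.15. Identifiers were joined to GENCODE 44 without version (16553 of 16575), and promoters were taken from RefSeq (19 of 27 genes matched).

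Named genes were WWOX and the AP-2 genes, the 12 genes per direction whose change in the least changed line was largest, the 3 largest changes per line and direction, up to 4 genes per list that differed by at least 0.5 in each line (otherwise 2 by mean), and the 5 smallest interaction p per direction, without XIST and Y-linked genes. TFAP2B did not pass the filter. Promoters of TFAP2C, KCNMB4, BAALC, PSD3, MIR3621, LINC00467, CRCT1 and MYL9 were not shown. Gene lists and the members of the comparison were chosen with earlier results of these data known.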

Additional observations from a re-analysis of the deposited data

Results flagged for a closer look

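Gene lists and genes whose change from KA to WA went in opposite directions in HT-1376 and CAL-29 were singled out, with 1 pair of libraries per line, so the differences were not tested. The cornified envelope median, relative to all genes after TMM scaling, was 2.69 higher in HT-1376 than in CAL-29, and that of the cytosolic ribosomal proteins was 1.21 higher. FOS changed by 8.09 more (log2) in CAL-29 than in HT-1376, whereas G0S2 and CD70 changed by 7 and 5.63 more in HT-1376 than in CAL-29. For FOS, the HT-1376 change rested on a high KA library (70.87 CPM, against 2.17 CPM in KK and 5.43 CPM in WA).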

How the results depend on the processing

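The count of called genes for WA against KA was 0 under pseudocounts, filters, scalings, edgeR and limma-voom and over 12, 18 or 17 libraries (the last chosen after seeing the data, without the library labelled CAL-29 KC, which resembled HT-1376). It was 0 without the replicate block too (3 genes at an unadjusted p under 0.05, against 244 with it), 1 with DESeq2, and 0 to 15 with 1 line left out (15 without HT-1376, 2 without RT-112). The interaction gave 0 under every alternative run, and the median change of all genes, 0.06, ranged from −0.09 to 0.18. The genes at least 0.5 higher in each line numbered 157 and 29 with pseudocounts of 0.05 and 2, 47 with at least 5 CPM in 3 libraries, 9 with a threshold of 1 and 1369 with any size, and the lower genes 61 and 25, 63 with TMM, 80 with quantile scaling, 0 with a threshold of 1 and 1053 with any size. With only 2 lines required they numbered 282 (without CAL-29) to 821 (without HT-1376) higher and 190 (without HT-1376) to 474 (without CAL-29) lower, 454 and 245 without RT-112. In CAL-29 the counts at least 1 higher and lower were 1603 and 878 with TMM and 1590 and 1194 with quantile scaling. These counts were added after seeing the data.

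List medians of the mean change moved by more than the SD over lines for 12 of 322 values. With 1 line left out, the medians ranged from −0.22 to 0.0754 for mesenchymal genes, 0.19 to 0.35 for matrix proteases, −0.16 to 0.37 for ERBB genes, 0.00643 to 0.0962 for glycolysis, −0.0278 to 0.148 for heat shock chaperones, −0.0509 to 0.118 for HOX genes and −0.28 to −0.18 for cancer-testis genes. Lists with a wider spread over lines also swung, from −0.15 to 0.78 for the cornified envelope, −0.06 to 0.56 for TGF-β, −0.09 to 0.35 for Rap1 and 0.16 to 0.89 for chemokines. Matrix proteases had 0.27 with a pseudocount of 2 and 0.11 with 5 CPM in 3 libraries, glycolysis −0.0746 with TMM and HOX genes −0.16 with quantile scaling. Of 998 values of 118 named genes, 23 changed sign, 0 of them among the 24 genes that led the 0.5 rule. The causes were not tested. There was 1 library per variant and line, and the ratios of genes near 3 reads are uncertain at this depth.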

Other observations

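Oxidative phosphorylation and ribosomal protein genes, which are among the most abundant transcripts, had list medians of different sign in different lines. Of 69 oxidative phosphorylation genes, 13 (18.8%) were lower in WA in all 3 lines and 2 (2.9%) higher, against 8.41% and 10.9% of all genes, with medians of −0.32 for RT-112, 0.11 for HT-1376 and −0.34 for CAL-29 (−0.73 after TMM). COX5A, a subunit of cytochrome c oxidase, went from 572.22 to 449.96 CPM in RT-112, from 386.23 to 299.84 CPM in HT-1376 and from 480.06 to 307.46 CPM in CAL-29. The 75 cytosolic ribosomal protein genes had medians of 0.10, 0.34 and −0.36 (−0.75 after TMM). All genes at 100 CPM and more on average had a median of −0.18 in CAL-29 with the deposited CPM.

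The aryl hydrocarbon receptor list was small (8 of 11 tested) and 3 members (37.5%) were higher in all lines, against 10.9% of all genes. CYP1B1, a cytochrome P450 induced by the receptor, went from 0.21 to 0.45, from 5.39 to 13.23 and from 11.72 to 35.29 CPM, and AHR itself from 12.42 to 14.64, from 40.23 to 62.18 and from 63.48 to 258.81 CPM. GCLC, which starts glutathione synthesis, went from 7 to 11.18, from 13.28 to 22.11 and from 65.58 to 156.21 CPM, while 40 NRF2 and glutathione genes had medians of 0.06, 0.26 and −0.41 (−0.80 after TMM).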
